A study of Mus musculus with 11 samples.

Results

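The 32 genes described here make, regulate or export cholesterol and fatty acids: 18 enzymes of sterol synthesis, 6 regulators of the SREBP pathway, 6 genes of fatty acid synthesis and 2 efflux transporters. They were chosen by symbol from results of the same MYCN ON against MYCN OFF contrast in these tumors, so their counts, fold changes and p-values in that contrast describe them and support nothing. All 32 symbols were among the 23284 listed genes, and 31 of the 32 passed the filter on low counts that 15237 genes passed. Hmgcs1, the synthase at the entry to the mevalonate pathway, did not pass. It was listed at 0 reads in all 11 tumors, as were 3293 of the listed genes. A count of 0 allows up to 0.203 to 0.349 CPM (reads scaled to library depth) by counting error, that is 3 reads in a tumor, and it does not show whether the authors' counting could assign reads to this gene. Beyond these and 72 other lipid genes described last, genes of the pathway were not analysed here.

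The study compared mouse small cell lung tumors, a neuroendocrine carcinoma, with a MYCN transgene switched on or off. The MYCN ON group was 7 tumors under doxycycline. The MYCN OFF group was 4 tumors taken 7 days after doxycycline left the feed. All 11 tumors had the labelled genotype Rb;p53, TRE-MYCN, LSL-RTTA, that is Rb and p53 alleles, MYCN under a doxycycline-responsive promoter and a transactivator behind a lox-stop-lox cassette. The sources used here name neither the Cre that opens this cassette nor the ages of the mice. They also leave unsaid whether each tumor is from its own mouse. The tests treated the tumors as independent, so the p-values cover the spread between tumors and can be too small if tumors shared a mouse. Doxycycline and MYCN changed together, and no tumor received the drug without the transgene, so effects of MYCN and of the drug cannot be told apart.

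Cells build cholesterol from acetyl-CoA through mevalonate, isoprenoids, squalene and lanosterol. When the membrane of the endoplasmic reticulum runs low in sterol, SCAP carries the SREBP transcription factors to the Golgi, where proteases release their active part. SREBP-2, made from Srebf2, mainly drives sterol genes, SREBP-1, made from Srebf1, mainly drives fatty acid genes, and the INSIG proteins hold SCAP back when sterol is plentiful. Excess sterol activates the LXR receptors, which raise the efflux transporters Abca1 and Abcg1 and also Srebf1. In lung, alveolar type II cells make large amounts of lipid for surfactant, and lung macrophages export the cholesterol they take up.

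Libraries held 10324089 to 13123838 gene reads in MYCN ON and 8951733 to 12190957 in MYCN OFF. Mycn, which checks the labels, had 36.5, 109 and 171 CPM as the lowest, median and highest MYCN ON values, against 14.5, 15.7, 13.0 and 5.63 CPM in MYCN OFF tumors 1 to 4, with no overlap. The summed level of 8 neuroendocrine markers was 2794 to 4186 CPM in MYCN ON and 1588 to 8060 CPM in MYCN OFF, so the markers of the labelled tumor type were present in every tumor. Lung tissue was uneven. The 9 alveolar type II markers summed to 44.8 to 2279 CPM in MYCN ON, and to 17192, 126, 2372 and 2579 CPM in MYCN OFF tumors 1 to 4. MYCN OFF tumor 2 was thus the one lung-poor tumor of its group, and its 6 skeletal muscle markers summed to 421 CPM, against 5.26 to 107 CPM in MYCN ON and 6.38 to 16.7 CPM in the other MYCN OFF tumors. In bulk tumors, fewer cells of a type and less RNA per cell cannot be told apart.

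Sterol synthesis was the role with the most genes higher in MYCN ON. Of its 17 tested genes, 10 were higher at an edgeR quasi-likelihood adjusted p below 0.05, and 7 were not called. The median log2 fold change, MYCN ON over MYCN OFF, was 0.89, beside 0.0023 over all genes tested. Over all genes 29.4% were called, 16% higher and 13.4% lower in MYCN ON, and over all roles 13 of 31 members were higher, 2 were lower and 16 were not called. That split was 11 higher and 2 lower with RLE scaling, 10 and 4 with upper quartile scaling, and 6 and 7 with library totals alone. Over all 15237 genes it was 2142 and 2323 with RLE, 1697 and 2894 with upper quartile, and 1317 and 3347 with library totals. In 5 of the 17 sterol genes every MYCN ON tumor lay above every MYCN OFF tumor, and of all members this held for 6 of 31. Among all genes the groups did not overlap for 16.8%, and every MYCN ON tumor was above every MYCN OFF tumor for 11.4%. The direction of these 10 sterol genes was the same under all 4 scalings tried, but with library totals alone only 5 of them were called, 2 others were called lower (Tm7sf2 and Ebp), and the median of all genes itself lay at -0.31.

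Promoter windows of the 4 sterol genes with the smallest p among those in the sequence table, and of Elovl6 as the fatty acid gene with the largest increase, are printed as the stretch in which these genes could share sterol-pathway motifs. Each runs from 250 bases before to 50 after the RefSeq start, 5′ to 3′ on the gene's strand, in mouse build GRCm38.p6: Idi1 at chr13:8885356-8885655 (plus strand), Cyp51 at chr5:4104648-4104947 (minus), Mvd at chr8:122443373-122443672 (minus), Acat2 at chr17:12960676-12960975 (minus) and Elovl6 at chr3:129532136-129532435 (plus). Capitals mark matches, on either strand, to an SREBP motif (TCACNCCAC), the MYC-type E-box (CACGTG), the NF-Y box (CCAAT) or the GC box (GGGCGG).
Idi1: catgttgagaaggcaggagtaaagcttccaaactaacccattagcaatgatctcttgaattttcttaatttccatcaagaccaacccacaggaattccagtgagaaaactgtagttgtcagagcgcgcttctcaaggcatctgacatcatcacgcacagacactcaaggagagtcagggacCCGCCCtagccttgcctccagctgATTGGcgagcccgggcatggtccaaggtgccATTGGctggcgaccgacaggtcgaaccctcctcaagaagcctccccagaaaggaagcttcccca
Cyp51: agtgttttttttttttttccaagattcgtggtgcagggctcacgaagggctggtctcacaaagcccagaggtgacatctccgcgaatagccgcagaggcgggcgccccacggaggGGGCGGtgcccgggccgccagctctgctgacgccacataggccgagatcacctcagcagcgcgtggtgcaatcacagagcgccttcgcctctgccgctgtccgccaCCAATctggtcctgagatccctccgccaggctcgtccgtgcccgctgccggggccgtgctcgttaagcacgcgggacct
Mvd: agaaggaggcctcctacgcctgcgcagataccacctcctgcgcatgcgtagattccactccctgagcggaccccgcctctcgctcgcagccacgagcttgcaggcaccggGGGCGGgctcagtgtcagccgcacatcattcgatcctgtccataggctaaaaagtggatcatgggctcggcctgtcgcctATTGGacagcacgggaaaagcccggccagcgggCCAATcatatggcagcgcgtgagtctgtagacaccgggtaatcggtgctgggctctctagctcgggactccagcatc
Acat2: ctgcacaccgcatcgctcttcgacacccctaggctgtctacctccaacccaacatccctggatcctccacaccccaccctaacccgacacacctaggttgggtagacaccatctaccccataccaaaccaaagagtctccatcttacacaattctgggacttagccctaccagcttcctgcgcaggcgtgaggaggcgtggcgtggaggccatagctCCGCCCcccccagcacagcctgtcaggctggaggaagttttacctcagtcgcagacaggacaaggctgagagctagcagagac
Elovl6: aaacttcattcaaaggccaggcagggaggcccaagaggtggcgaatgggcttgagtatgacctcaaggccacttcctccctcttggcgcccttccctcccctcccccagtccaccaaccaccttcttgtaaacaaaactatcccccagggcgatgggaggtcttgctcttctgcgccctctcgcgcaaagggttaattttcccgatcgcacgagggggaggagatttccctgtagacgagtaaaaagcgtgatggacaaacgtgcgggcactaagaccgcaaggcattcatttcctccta
Idi1 and Mvd each held a pair of NF-Y boxes and 1 GC box, Cyp51 held 1 of each, Acat2 held a GC box alone, and none of these letters were in the Elovl6 window. Over the 25 of 32 members with a window, 33 windows in all, the NF-Y box was in 21 windows (63.6%), against 37.4% of the 32851 windows searched. It was found in 14 of the 15 sterol genes with a window. The GC box was in 25 of the 33 (75.8%), against 35.7% of all windows, and also in 14 of those 15 sterol genes. The E-box was in 7 member windows (21.2%), against 7.15% of all, and those belonged to Abca1, Dhcr7, Hsd17b7, Insig1, Sc5d and Scap. The SREBP motif was in 1 member window (3.03%), that of Hmgcs1, against 1.24% of all. Other or partial forms of that motif were not searched. Matches to different motifs overlapped 0 times in member windows. A match is a run of letters and not a measured site, and a window without one lacks only those letters.

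The 6 members whose groups did not overlap came from several points of the pathway. Idi1, the isomerase that turns isopentenyl diphosphate into its reactive isomer, had 125, 152 and 199.5 CPM as the lowest, median and highest of MYCN ON, against 44.0, 38.8, 36.5 and 34.5 CPM in MYCN OFF tumors 1 to 4. The lowest MYCN ON tumor was thus above the highest MYCN OFF tumor by more than the whole MYCN OFF range. Its log2 fold change was 2.01 (SE 0.18, adjusted p = 0.000318), about 4.03-fold. Fdft1, squalene synthase, the first enzyme committed to sterols, had 86.4, 107 and 131 CPM in MYCN ON, against 50.7, 44.2, 37.2 and 39.1 CPM in MYCN OFF. Here too the groups were apart (log2 fold change 1.34, SE 0.16, adjusted p = 0.0005). In the GENCODE M21 annotation 20.9% of the exon bases of Fdft1 overlap Ctsb on the opposite strand, and no source used here gives the strand setting of the counting, so reads of that stretch cannot be told apart.

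Cyp51, the demethylase of lanosterol, had 84.5, 106 and 156 CPM in MYCN ON, against 38.5, 50.3, 44.3 and 25.4 CPM in MYCN OFF (log2 fold change 1.47, SE 0.23, adjusted p = 0.00152). Its exons overlap Akap9 on the opposite strand over 166 bases, 4.22% of its exon length. Mvd, the decarboxylase that ends the mevalonate steps, had 25.3, 36.9 and 49.8 CPM in MYCN ON, against 18.6, 15.7, 17.6 and 14.1 CPM in MYCN OFF (log2 fold change 1.19, SE 0.21, adjusted p = 0.00245). Acat2, the cytosolic thiolase that joins acetyl-CoA units, had 43.6, 74.8 and 108 CPM in MYCN ON, against 25.8, 37.7, 25.9 and 19.0 CPM in MYCN OFF (log2 fold change 1.51, SE 0.31, adjusted p = 0.00501). Of these, Acat2 varied most within MYCN ON, and its MYCN OFF tumor 2 came closest to that group.

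**Figure D1:**
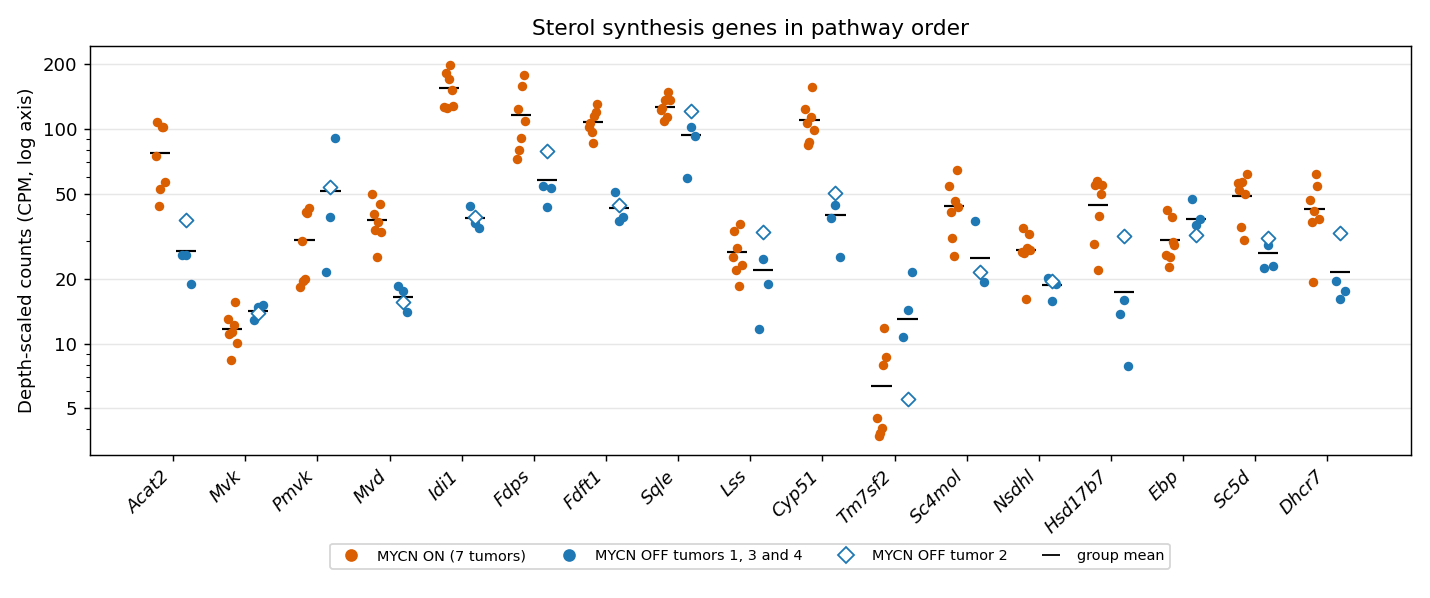
Depth-scaled counts (CPM, log axis) of the 17 sterol synthesis genes with reads, in pathway order, 1 point per tumor, with MYCN ON (7 tumors) left of MYCN OFF (4 tumors, open diamond: tumor 2) and bars at group means. For Idi1 the MYCN ON tumors lie at 125 to 199.5 CPM and the MYCN OFF tumors at 34.5 to 44.0 CPM, while for Mvk and Lss the groups overlap.

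A further 5 sterol genes were called higher with overlapping groups. Fdps, farnesyl diphosphate synthase at the branch to prenyl lipids, had 72.6, 109 and 179 CPM in MYCN ON, against 54.1, 79.4, 43.4 and 53.4 CPM in MYCN OFF (log2 fold change 1.01, SE 0.28, adjusted p = 0.0198). Only MYCN OFF tumor 2 reached the MYCN ON range. In GENCODE M21 77.4% of its exon bases also belong to Gm43738 on the same strand, and no source used here names the authors' annotation. Hsd17b7, a ketosteroid reductase of sterol demethylation, had 22.0, 50.02 and 57.5 CPM in MYCN ON, against 13.7, 31.8, 15.9 and 7.88 CPM in MYCN OFF (log2 fold change 1.35, SE 0.39, adjusted p = 0.0234). Dhcr7, the reductase that finishes cholesterol, had 19.4, 41.4 and 61.6 CPM in MYCN ON, against 19.6, 32.8, 16.1 and 17.6 CPM in MYCN OFF (log2 fold change 0.98, SE 0.31, adjusted p = 0.0327). In both, MYCN OFF tumor 2 was the highest of its group and lay within the MYCN ON range, and in Dhcr7 tumor 1 also reached it.

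Sc5d, a late sterol desaturase, had 30.4, 51.7 and 61.7 CPM in MYCN ON, against 22.4, 31.2, 28.7 and 23.0 CPM in MYCN OFF (log2 fold change 0.89, SE 0.22, adjusted p = 0.0135). Sc4mol, the methylsterol oxidase now named Msmo1, had 25.6, 43.5 and 64.7 CPM in MYCN ON, against 37.1, 21.7, 21.6 and 19.3 CPM in MYCN OFF (log2 fold change 0.81, SE 0.28, adjusted p = 0.0461). MYCN OFF tumor 1 alone was high in Sc4mol, and tumor 2 alone overlapped in Sc5d. Without MYCN OFF tumor 1, 3 or 4, one at a time, Fdps, Hsd17b7 and Dhcr7 missed the threshold (adjusted p = 0.0535 to 0.0897), and Dhcr7 also did so without MYCN ON tumor 1, 5 or 6 (0.0526 to 0.0653). Sc4mol was called in only 2 of the 11 fits that left out 1 tumor, without MYCN ON tumor 4 and without MYCN OFF tumor 1, while Sc5d was called in all 11.

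The remaining 7 sterol genes were not called and had fold changes of both signs. Sqle, the squalene epoxidase that is a rate-limiting oxygenase of the pathway, had 109, 125 and 148 CPM in MYCN ON, against 59.4, 121, 102 and 92.4 CPM in MYCN OFF (log2 fold change 0.44, adjusted p = 0.0863). MYCN OFF tumor 2 lay inside the MYCN ON range, and without it the fold change was 0.60 (adjusted p = 0.0286). Nsdhl, a decarboxylating dehydrogenase of sterol demethylation, had a log2 fold change of 0.55 (adjusted p = 0.0752, or 0.0246 without MYCN ON tumor 4), and Lss, lanosterol synthase, one of 0.27 (adjusted p = 0.497, and -0.049 with library totals). Lower values in MYCN ON were measured for Tm7sf2, a sterol reductase, at -1.03 (adjusted p = 0.0966, or 0.0417 without MYCN OFF tumor 2), and for Pmvk, phosphomevalonate kinase, at -0.75 (0.142). Ebp, the sterol isomerase, was at -0.32 (0.249), and Mvk, mevalonate kinase, at -0.28 (0.381). Mean levels of these 7 genes were 6.38 to 127 CPM in MYCN ON and 13.0 to 93.5 CPM in MYCN OFF.

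The 6 SREBP regulators had fold changes of both signs. Of them 2 were higher in MYCN ON and 4 were not called, beside the 16% higher and 13.4% lower of all genes, and the median log2 fold change was 0.14. Srebf2, the gene of SREBP-2, had 155, 183 and 232 CPM in MYCN ON, against 101, 195, 103 and 86.1 CPM in MYCN OFF. MYCN OFF tumor 2 stood at the MYCN ON level and the other 3 were below all MYCN ON tumors. Its log2 fold change was 0.60 (SE 0.23, adjusted p = 0.0667), and 0.93 (adjusted p = 0.00376) without that tumor. Srebf1, the gene of SREBP-1, had 56.4, 120.1 and 159 CPM in MYCN ON, against 114, 237, 148 and 209 CPM in MYCN OFF. Here the fold change was -0.81 (SE 0.33, adjusted p = 0.0822, or 0.0492 without MYCN ON tumor 7).

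The ratio of Srebf2 to Srebf1 reads within a tumor, which does not depend on the scaling, was 1.59, 3.17, 1.30, 2.70, 1.27, 4.11 and 1.16 in MYCN ON tumors 1 to 7, against 0.884, 0.822, 0.698 and 0.411 in MYCN OFF tumors 1 to 4. Every MYCN ON tumor thus had more Srebf2 than Srebf1 reads and every MYCN OFF tumor fewer, tumor 2 included. This ratio was chosen after the values were seen, so it has no test, and reads of genes of unequal length do not compare their molecules.

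Insig1, a sterol-regulated brake on SCAP, had 68.6, 82.0 and 109 CPM in MYCN ON, against 59.5, 82.4, 43.0 and 48.0 CPM in MYCN OFF (log2 fold change 0.61, SE 0.21, adjusted p = 0.0459). It was called in only 2 of the 11 fits that left out 1 tumor, without MYCN ON tumor 5 and without MYCN OFF tumor 2. Insig2, its less sterol-responsive relative, had 33.4, 43.3 and 49.7 CPM in MYCN ON, against 59.1, 43.2, 55.9 and 54.0 CPM in MYCN OFF (log2 fold change -0.31, adjusted p = 0.145). MYCN OFF tumor 2 was again the one within the MYCN ON range. The Insig1 to Insig2 ratio was 1.52 to 2.52 in MYCN ON, against 1.01, 1.91, 0.770 and 0.889 in MYCN OFF.

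Stard4, a carrier that moves sterol between membranes, had 35.3, 41.3 and 64.1 CPM in MYCN ON, against 13.4, 38.8, 15.7 and 9.85 CPM in MYCN OFF. The 3 lung-containing MYCN OFF tumors were at less than the lowest MYCN ON value, and tumor 2 was inside the range. The log2 fold change was 1.16 (SE 0.35, adjusted p = 0.0291), and the call was lost without MYCN ON tumor 2 (0.0528) or without MYCN OFF tumor 1, 3 or 4 (0.0760 to 0.0864). Scap, the escort of SREBP, had 51.1, 90.1 and 116 CPM in MYCN ON, against 49.3, 153, 112 and 144 CPM in MYCN OFF (log2 fold change -0.41, adjusted p = 0.337). With library totals alone Insig1 and Stard4 were not called, and Srebf1 and Insig2 were called lower, as they also were with upper quartile scaling and with DESeq2. Insig1 lost its call in 18 of 22 alternatives, among them RLE scaling (edgeR adjusted p = 0.0643) and upper quartile scaling (0.1085).

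**Figure D2:**
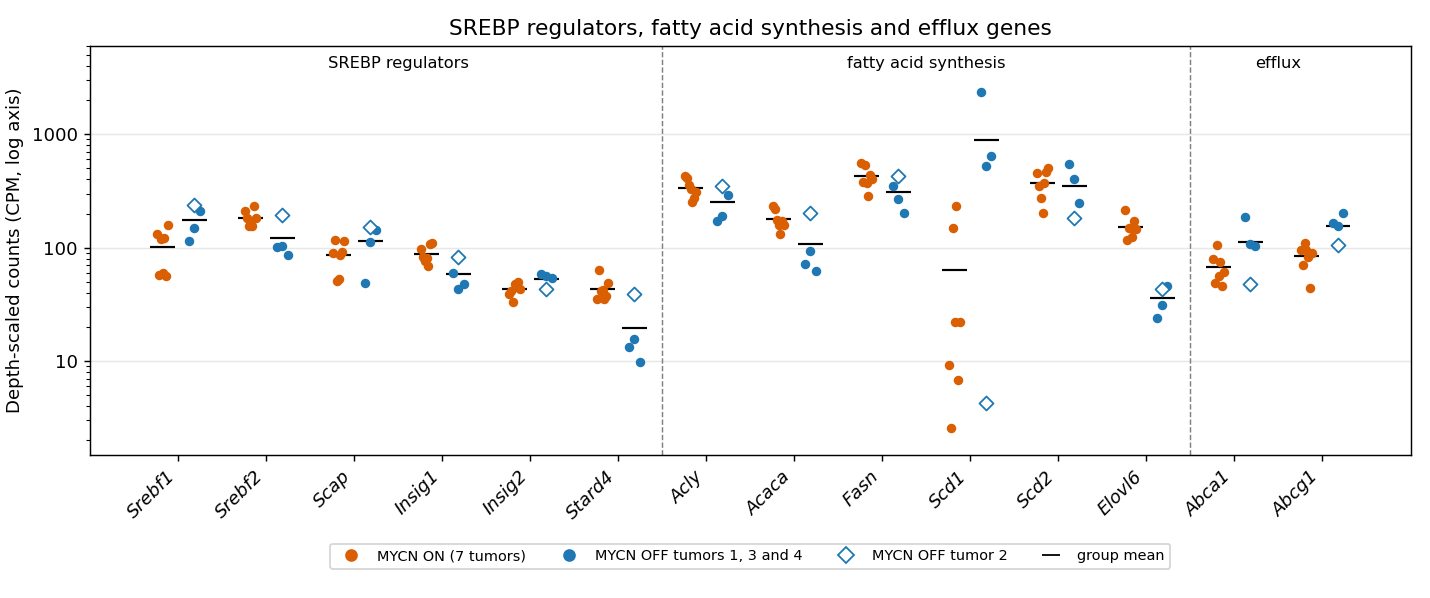
Depth-scaled counts (CPM, log axis) of the SREBP regulators, fatty acid synthesis and efflux genes, 1 point per tumor, with MYCN ON (7 tumors) left of MYCN OFF (4 tumors, open diamond: tumor 2) and bars at group means. Elovl6 separates the groups at 117 to 215 CPM in MYCN ON and 24.2 to 45.9 CPM in MYCN OFF, while Scd1 spans 2.57 to 234 CPM in MYCN ON and 4.26 to 2359 CPM in MYCN OFF.

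**Figure D3:**
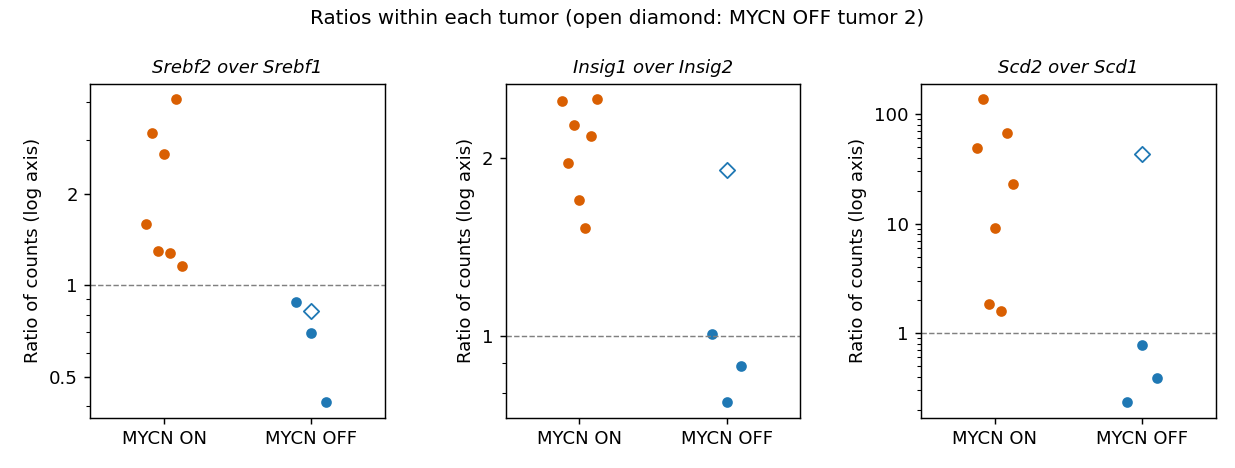
Ratios of read counts within each tumor (log axis) for Srebf2 over Srebf1, Insig1 over Insig2 and Scd2 over Scd1, with MYCN ON left of MYCN OFF, the dashed line at 1 and tumor 2 of MYCN OFF as an open diamond. The first ratio is 1.16 to 4.11 in MYCN ON and 0.411 to 0.884 in MYCN OFF, and in the other panels tumor 2 lies within the MYCN ON range.

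Fatty acid synthesis held the member with the largest increase and the one with the largest decrease. Of its 6 genes 1 was higher (Elovl6), 1 was lower (Scd1) and 4 were not called, beside the 16% higher and 13.4% lower of all genes, with a median log2 fold change of 0.44. Elovl6, the elongase that lengthens palmitate to stearate, had 117, 148 and 215 CPM in MYCN ON, against 24.2, 43.4, 31.1 and 45.9 CPM in MYCN OFF. Every MYCN ON tumor was thus far above every MYCN OFF tumor. The log2 fold change was 2.08 (SE 0.23, adjusted p = 0.00041), about 4.24-fold.

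Scd1 and Scd2, near copies that encode stearoyl-CoA desaturases and so make monounsaturated fatty acids, were distributed differently over the tumors. Scd1 had 2.57, 21.9 and 234 CPM in MYCN ON, against 2359, 4.26, 522 and 639 CPM in MYCN OFF. Its high values were in the tumors with lung tissue, MYCN OFF tumors 1, 3 and 4 and, within MYCN ON, tumors 5 (234 CPM) and 3 (148 CPM), while MYCN OFF tumor 2 was near the bottom of the MYCN ON range. The log2 fold change was -3.79 (SE 1.32, adjusted p = 0.0484), and it was called in only 2 of the 11 fits that left out 1 tumor, without MYCN ON tumor 5 and without MYCN OFF tumor 2. Scd2 had 202, 372 and 503 CPM in MYCN ON, against 549, 184, 406 and 249.6 CPM in MYCN OFF (log2 fold change 0.11, adjusted p = 0.817, and -0.20 with library totals), and the groups overlapped. Multiply aligned reads were recorded apart from the genes, so reads shared by the copies may be missing from both. Values of both are uncertain to that extent. The 6 adipocyte markers summed to 31.6 to 145 CPM in MYCN ON and to 8.07 to 30.8 CPM in MYCN OFF, mostly from Fabp4, the only 1 of the 6 that passed the low-count filter, and their part in the fatty acid genes was not tested.

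The enzymes that feed the chain were not called. Acly, which splits citrate into cytosolic acetyl-CoA, had 254, 329.9 and 426 CPM in MYCN ON, against 171, 348, 189 and 293 CPM in MYCN OFF (log2 fold change 0.43, adjusted p = 0.165). Acaca, the carboxylase that makes malonyl-CoA, had 131, 171 and 232 CPM in MYCN ON, against 72.3, 202, 92.8 and 61.9 CPM in MYCN OFF (log2 fold change 0.73, adjusted p = 0.0891). Fasn, fatty acid synthase, had 286, 399.8 and 563 CPM in MYCN ON, against 347, 425, 269 and 201 CPM in MYCN OFF (log2 fold change 0.45, adjusted p = 0.163). MYCN OFF tumor 2 was the highest of its group in all 3, and without it Acaca (1.24, adjusted p = 0.00309) and Acly (0.64, adjusted p = 0.0465) passed the threshold while Fasn (0.65, adjusted p = 0.0561) did not.

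Both efflux transporters had lower means in MYCN ON. Abcg1, which passes cholesterol to lipoproteins, had 43.9, 89.4 and 110.3 CPM in MYCN ON, against 166, 105, 154 and 201 CPM in MYCN OFF. MYCN OFF tumor 2 alone overlapped with MYCN ON. The log2 fold change was -0.90 (SE 0.24, adjusted p = 0.0169), and 0.0613 was the adjusted p without MYCN OFF tumor 4. Abca1, the transporter that loads apolipoprotein with cholesterol, had 45.8, 61.7 and 106 CPM in MYCN ON, against 187, 48.3, 108 and 103 CPM in MYCN OFF (log2 fold change -0.72, SE 0.32, adjusted p = 0.107, or 0.0215 without MYCN OFF tumor 2). The 8 macrophage markers summed to 169 to 960 CPM in MYCN ON, against 6456, 235, 1485 and 1692 CPM in MYCN OFF tumors 1 to 4, with 3 of the 8 called lower, and their part in these values was not tested.

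Across the 31 members, MYCN OFF tumor 2 lay within the MYCN ON range for 20 genes, tumor 1 for 8 and tumors 3 and 4 for 7 each. Tumor 2 was also the highest of its group in 16 of the 31, and in 5 of the 6 SREBP regulators. The same counts over all genes were not made, so whether they are particular to these members was not tested. For the 5 sterol genes and Elovl6 without overlap, tumor 2 was below the MYCN ON range by definition, like every MYCN OFF tumor.

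A score of lung tissue, the mean log2 CPM of 12 alveolar type II and club cell genes, was set beside the group in 1 fit to see which members followed lung tissue at a fixed MYCN state, a relation the choice of genes did not use. Only Scd1 among the members passed, with a slope of 0.81 log2 units per unit of score (SE 0.079, edgeR adjusted p = 0.000437), where 2.8% of all genes passed. The 11 tumors spanned 11.8 score units. Its slope was 0.68 to 0.90 and it was called in all 14 alternative fits. At an unadjusted p below 0.05, 10 members and 3003 genes passed, and 4 members did so without MYCN OFF tumor 2. The 426 genes called for the slope became 107 to 649 in the fits that left out 1 tumor, lowest without MYCN OFF tumor 2 and highest without MYCN ON tumor 4. They were 140 without MYCN OFF tumor 1, 143 without MYCN ON tumor 5 and 259 without MYCN ON tumor 2. Abca1 had a slope of 0.14 (adjusted p = 0.0527), while Acaca (-0.11, 0.0612) and Lss (-0.11, 0.0708) had negative slopes. Abca1 was also called with library totals, with limma voom and without MYCN ON tumor 1 or 5, and Acaca without MYCN ON tumor 3 or 4.

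In the same fit the group difference at a fixed lung score was called for 11.3% of all genes and for 6 members, all higher in MYCN ON. They were Idi1 (log2 fold change 2.06, adjusted p = 0.00351), Elovl6 (1.88, 0.00381), Fdft1 (1.37, 0.00411), Cyp51 (1.30, 0.0119), Mvd (1.16, 0.0194) and Acat2 (1.32, 0.0313). Scd1, at -3.79 without the score, was at 0.34 with it (adjusted p = 0.796), and Abca1 was at 0.054 (0.931). Abcg1 kept a negative value of -0.58 that did not pass (0.209). With only the 6 tumors under 100 CPM of the surfactant gene Sftpc, 5 MYCN ON tumors and MYCN OFF tumor 2, edgeR called 0 genes of any kind, and 6 members and 2288 genes had an unadjusted p below 0.05. The lone MYCN OFF tumor was assumed to vary like the others. Over all 22 alternative fits, this one included, Idi1 was at 1.71 or more, Elovl6 at 1.76 or more and Acat2 at 1.04 or more.

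**Figure D4:**
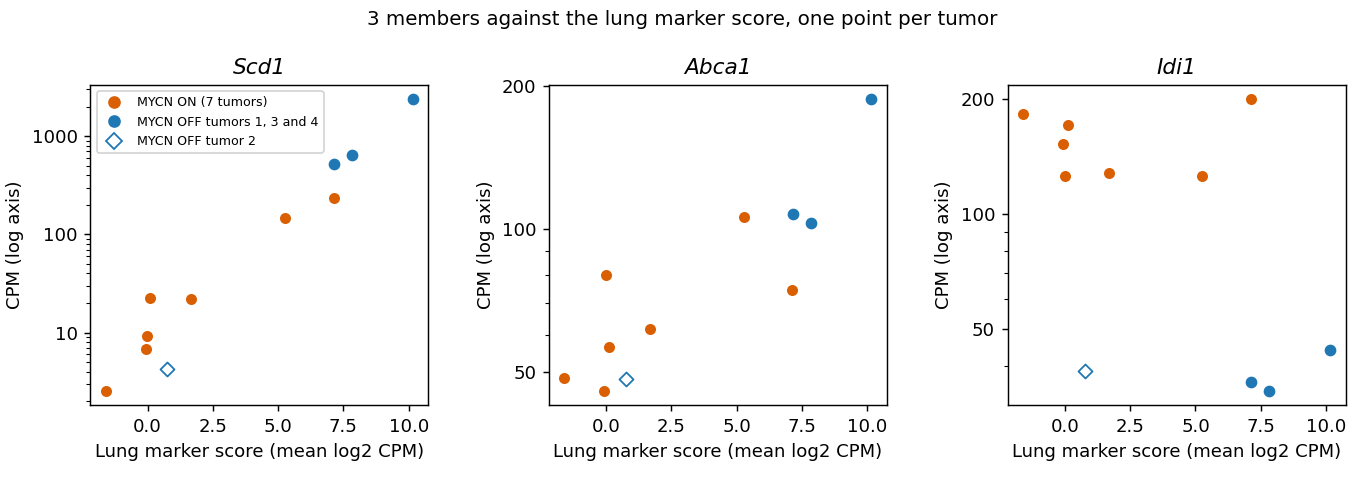
CPM (log axis) of Scd1, Abca1 and Idi1 against the lung marker score (mean log2 CPM of 12 genes), 1 point per tumor, with MYCN OFF tumor 2 as an open diamond. Scd1 climbs with the score in both groups (slope 0.81 log2 units per unit at fixed group), while Idi1 keeps the groups apart at 125 to 199.5 CPM in MYCN ON and 34.5 to 44.0 CPM in MYCN OFF at low and high scores alike.

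**Figure D5:**
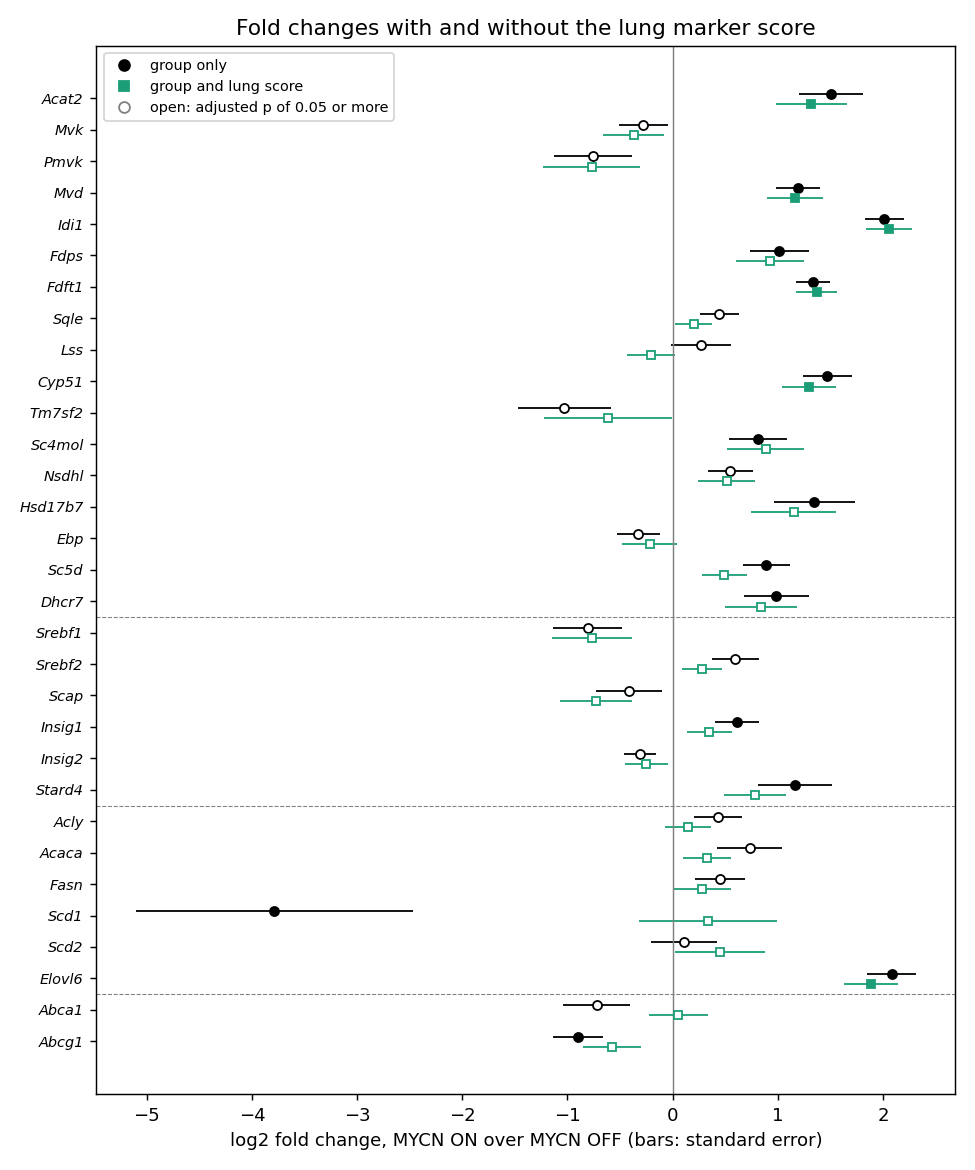
Log2 fold changes of the 31 tested members, MYCN ON over MYCN OFF, with standard errors, by role from sterol synthesis (top) to efflux (bottom), from the fit with the group alone (circles) and with the lung score added (squares); filled symbols passed an adjusted p of 0.05. With the score, Scd1 moves to 0.34, and the 6 filled squares are Acat2, Mvd, Idi1, Fdft1, Cyp51 and Elovl6.

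Within the 7 MYCN ON tumors Mycn spanned 36.5 to 171 CPM, or 2.23 doublings, another source of variation that the choice of genes did not use. In simulated data with 200 changed genes this slope fit called 14% of 2-fold and 78% of 4-fold changes per doubling of Mycn. By edgeR 0 members and 0% of all 15236 other genes followed the measured Mycn level at an adjusted p below 0.05. At an unadjusted p below 0.05, 2 members and 1328 genes passed, and limma voom gave 0 members adjusted and 3 unadjusted. The 2 members at an unadjusted p became 0 without MYCN ON tumor 1, 1 without tumor 2, 5 without tumor 6, and 3 without tumor 3 or 7. The 2 members were Fasn, at 0.36 log2 units per doubling of Mycn (SE 0.12, unadjusted p = 0.0162), and Elovl6, at 0.30 (SE 0.12, unadjusted p = 0.0311). Idi1, the sterol gene with the largest group difference, was at -0.26 (SE 0.12, unadjusted p = 0.0671). Over the 31 members 15 slopes were positive, with a median of -0.0063, close to that over all genes (-0.0063).

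On a scale that allows genes to be ranked (CPM per kilobase of exon, from the GENCODE M21 exon union), the members with the highest mean levels in MYCN ON were Fdps at 80.0, Acly at 73.3, Scd2 at 68.7, Idi1 at 51.3 and Sqle at 46.1. In MYCN OFF they were Scd1 at 182, Scd2 at 63.6, Acly at 54.3, Srebf1 at 41.2 and Fdps at 39.6. The mean of Scd1 covered 0.882 to 488 over the MYCN OFF tumors, highest in tumor 1 and lowest in tumor 2, so its place in this order rests on the lung-containing tumors. Neighbours in these orders overlapped: Fdps was at 49.97 to 123 and Acly at 55.2 to 92.5 over the MYCN ON tumors. By level per kilobase Idi1 was the 4th of 32 members in MYCN ON and the 15th in MYCN OFF, Elovl6 the 12th and the 27th, and Scd1 the 21st and the 1st. Low throughout were Tm7sf2 at 3.77 and Lss at 5.72 in MYCN ON, and at 7.70 and 4.74 in MYCN OFF.

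Genes of neighbouring pathways that are not among the 32 changed in both directions. Of 72 such genes 71 were tested, 9 were higher, 12 were lower and 50 were not called, beside 16% higher and 13.4% lower over all genes, and their median log2 fold change was -0.08. With library totals alone 19 were lower, beside 3347 of all 15237 genes. The isoprenoid branches, which take farnesyl and isopentenyl units from the sterol route, had 3 of 12 higher and 9 not called. These were Pdss1, which makes the ubiquinone tail (log2 fold change 1.65, SE 0.26, adjusted p = 0.00156), Nus1 of dolichol synthesis (0.99, SE 0.16, adjusted p = 0.00171) and Ggps1, geranylgeranyl diphosphate synthase (0.76, SE 0.16, adjusted p = 0.00527). Each had all 7 MYCN ON tumors above all 4 MYCN OFF tumors, Ggps1 for example with 43.9, 56.5 and 64.8 CPM against 31.5, 36.7, 29.9 and 28.5 CPM.

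In SREBP processing and sterol sensing 4 of 15 were higher and 2 lower, beside 16% higher and 13.4% lower over all genes. Tmem97, the sigma-2 receptor, was at 1.63 (adjusted p = 0.00132), Mbtps2, the protease that makes the second SREBP cleavage, 2.3-fold higher (0.00542), and Faf2, which helps remove INSIG1 from the membrane, at 0.56 (0.0117). Rnf139 was also higher, at 0.53 (0.0335). Lower was Nr1h2, the LXR beta receptor, at -0.52 (0.0279), and so was Nr1h3, LXR alpha, at -1.76 (0.0386). Rnf139 and Nr1h3 are named beyond the 4 with the smallest p, after their values were seen. Nr1h3 had 1.004, 4.89 and 6.56 CPM in MYCN ON, against 29.9, 2.18, 14.7 and 12.9 CPM in MYCN OFF, so its high values were in the MYCN OFF tumors with the larger macrophage sums.

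Of 24 other fatty acid genes 1 was higher and 6 were lower, beside 16% and 13.4% of all genes. With the lung score as a covariate, 4 of all 71 other lipid genes were called higher and 3 lower, beside 1180 and 547 of all 15237 genes. Mid1ip1, a partner of the acetyl-CoA carboxylases, was at -1.32 (adjusted p = 0.00141) with 33.1, 52.0 and 74.2 CPM in MYCN ON, against 167, 128, 123 and 129 CPM in MYCN OFF, with no overlap. Acss2, which makes acetyl-CoA from acetate, was at -0.95 (0.00716), Fads3, of the desaturase family, at -2.04 (0.00916), and Elovl1, an elongase of very long chains, at -1.69 (0.011). In uptake, trafficking, storage and breakdown of sterols 1 of 20 was higher and 4 were lower, beside the same 16% and 13.4%. Lrp8, a lipoprotein receptor, was at 1.37 (0.017), while Nceh1, a cholesterol ester hydrolase, was at -1.20 (0.00518), Stard3, of the late endosome, at -1.06 (0.00531) and Cyp27a1, the sterol hydroxylase, at -2.59 (0.00944). The decreases of Fads3, Elovl1 and Cyp27a1 had their highest value in MYCN OFF tumor 1, the tumor with the largest lung and macrophage sums, whose part in them was not tested.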

How the data were processed

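Poly(A) RNA of 11 mouse tumors was sequenced, per the labels' protocols with TRIzol extraction, oligo-dT selection and the NEBNext Ultra kit. The submitters' processing notes name bcl2fastq 1.8.4, TopHat2 2.0.8b, HTSeq 0.6.1 and the mm9 build, with no roles. Annotation, options and strand: not given in the sources used here. The authors deposited whole-number counts per gene symbol, not normalized. The 5 summary rows that name no gene stayed out of library sizes. Reads with no gene made up 14.8% to 21.5% of a tumor's records and multiply aligned reads 9.15% to 20.9%.

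The analysis used edgeR 4.0.16 under R 4.3.3: filterByExpr by group (minimum count 10, minimum total 15), TMM factors, and the robust quasi-likelihood test of 7 MYCN ON against 4 MYCN OFF tumors with Benjamini-Hochberg adjustment over 15237 genes, with a call at an adjusted p below 0.05. CPM values use the TMM factors, which were 0.835 to 1.01 in MYCN ON and 1.09 to 1.22 in MYCN OFF. Standard errors were taken as the size of the log2 fold change over the root of F. The biological coefficient of variation was 53.7%. MYCN ON libraries were deeper (two-sided exact permutation p = 0.0424). Slopes on log2 Mycn CPM and on the lung score were fitted in the same way, the lung score from log2 CPM with a prior count of 2. The test was checked on simulated data with 200 changed genes among 15237. Between the groups 22% of 2-fold and 71% of 4-fold changes were called, and 2.1% of calls were false. On the Mycn slope, as fold per doubling, 14% and 78% were called. On the lung slope, as fold per 4 score units, 61% and 89% were called. A member that was not called can thus still differ by 2-fold.

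Members and gene lists were chosen with earlier results of these data known. Every member is named, and of each list of other lipid genes up to 4 called genes with the smallest p, with Rnf139 and Nr1h3 added. Promoter windows are from RefSeq, GRCm38.p6. Chromosome 18 was left out of the search. Members with no window searched were Scd1, Scd2, Fdft1, Fdps, Sqle, Abcg1 and Stard4. Exon lengths and overlaps are from GENCODE M21, another build than the counts. Alternatives were upper quartile or RLE scaling, library totals, DESeq2 1.42.0, limma 3.58.1 voom, no filter and a filter of at least 10 CPM in 4 tumors, a replicate block, an adjusted p below 0.01, each tumor left out in turn, the lung score as a covariate, and the tumors with Sftpc below 100 CPM alone.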

Additional observations from a re-analysis of the deposited data

Results flagged for a closer look

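Of 70 groups of member values examined, 2 had a tumor far from the rest of its group, where chance gives about 5% of groups. Sc4mol in MYCN OFF had tumor 1 at 37.1 CPM, with the next tumor at 21.7 CPM, a gap of 0.867 of the group's range. Srebf2 in MYCN OFF had tumor 2 at 195 CPM, with the next tumor at 103 CPM, a gap of 0.842 of the range.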

How the results depend on the processing

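Idi1, Fdft1, Cyp51, Mvd, Acat2 and Elovl6 kept their direction and call in 21 of 22 alternatives, the exception being the tumors with Sftpc below 100 CPM alone. Members called higher and lower, 13 and 2 with TMM, were 11 and 2 with RLE factors, 10 and 4 with upper quartile scaling, 6 and 7 with library totals, 13 and 5 with DESeq2, 14 and 1 with limma voom, 11 and 1 without a filter, 10 and 4 with the stricter filter, 6 and 0 at an adjusted p below 0.01, and 6 and 0 with the lung score. With 1 tumor left out they were 7 to 16 and 0 to 4. They were 8 and 1 without MYCN OFF tumor 1, and 16 and 4 without MYCN OFF tumor 2. Without MYCN OFF tumor 3 they were 7 and 1, and without MYCN OFF tumor 4 they were 7 and 0. Without MYCN OFF tumors 1 to 4 in turn, 18.6%, 34.8%, 21.7% and 19.0% of all genes were called. The lower count of members was 1 without MYCN ON tumor 1, 2, 3, 4 or 6, where 23.6% to 25.9% of all genes were called. Other lipid genes, 9 higher and 12 lower, had 19 lower with library totals, 5 higher and 6 lower at an adjusted p below 0.01, and 4 higher and 3 lower with the lung score. In the tumors with Sftpc below 100 CPM 0 members and 0 other lipid genes were called either way. Over all genes tested, 29.4% were called with TMM, 29.3% with RLE, 30.1% with upper quartile scaling and 30.6% with library totals. That share was 36.7% with DESeq2, 28.6% with limma voom, 22.8% without a filter and 30.6% with the stricter filter. It was 11.2% at an adjusted p below 0.01 and 11.3% with the lung score. Higher genes made up 54.5% of all calls with TMM, 48.0% with RLE, 37.0% with upper quartile (median of all genes -0.21) and 28.2% with library totals (median -0.31). The labels do not say whether same-numbered tumors of the groups are paired. Correlations of same-numbered deviations were -0.16, 0.46, -0.08 and 0.26, and without those of differently numbered tumors beside them they cannot decide it. The replicate block gave 9 members higher and 1 lower, with 6 other lipid genes lower, where 19.8% of all genes were called. Members following the lung score were 2 with limma voom or library totals, and 1 to 2 with a tumor left out. Directions turned for Scd2 with upper quartile scaling (-0.13), library totals (-0.20), the stricter filter (-0.067), the replicate block (-0.055), and without MYCN ON tumor 1 (-0.054), MYCN OFF tumor 2 (-0.089) or 4 (-0.014), within -0.089 to 0.42 over the fits leaving out 1 tumor. Lss turned with library totals (-0.049), the lung score (-0.21) and low Sftpc (-0.20), Scd1 with the lung score (0.34) and low Sftpc (1.53), and Abca1 likewise (0.054 and 0.25). With low Sftpc, Tm7sf2 (0.23), Srebf2 (-0.026), Insig2 (0.011), Acly (-0.014), Acaca (-0.12) and Fasn (-0.0090) also turned. The cause of these changes was not tested, beyond the fewer tumors in fits that leave some out. How far read depth limits these calls was not tested.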

Other observations

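Within MYCN ON, tumor 6 had the highest value of the 7 in 7 of the 17 sterol genes and tumor 3 the lowest in 7. Tumor 3 was 1 of the lung-containing MYCN ON tumors, with 450 CPM of Sftpc. The same counts over all genes were not made, so whether they are particular to sterol genes was not tested.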
